A study of Mus musculus with 8 samples.

Results

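Genes of DNA replication and of the supply of its nucleotides were examined in CD11b+ cells of the postnatal mouse brain 24 h after lipopolysaccharide (LPS, the endotoxin of Gram-negative bacteria) or saline. The set is a chosen list of 46 genes, and its members were the array probes whose deposited gene name equals one of them. It took 89 of 56605 probes other than controls, and all 46 genes were measured among 22509 genes tested. The rule used names and no signal, but the list itself was chosen with earlier results of these data known. The question was how the sorted cells of pups given LPS differ from those of pups given saline.

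The LPS group held 4 tubes and the saline group 4 tubes, all from 7-day-old male C57BL/6N mice with no transgene named. Each tube pooled 2 brains of equally treated mice, and CD11b+ cells, which carry an integrin of microglia and other myeloid cells, were taken from it with magnetic beads. RNA of each tube was hybridised to 1 Agilent 1-colour array. The labels used here give no dose or route of LPS. Levels are log2 processed signal minus the 75th percentile of the array, so that a level of 0 is the array's 75th percentile. A change is the mean log2 level after LPS minus that after saline, ± its standard error, with n = 4 arrays per group. A gene was called when limma's p, adjusted by Benjamini-Hochberg over all genes tested, was under 0.05. Median processed signals ran from 11.7 to 17.3 in LPS and from 15.5 to 21.5 in saline arrays, and 58.6% to 63.2% of probes on LPS arrays and 61.9% to 66.0% on saline arrays were well above background. Precision is limited by the number of arrays.

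A cell copies its genome once per division. In G1 the origin recognition complex, with Cdc6 and Cdt1, loads the MCM helicase onto DNA; in S phase the kinases Cdc7 and Cdk2 fire those origins by joining Cdc45 and the GINS complex to the helicase. Primase and DNA polymerases then copy both strands behind it, with the sliding clamp Pcna and its loader, while ribonucleotide reductase, thymidylate synthase and thymidine kinase supply the building blocks. Many of these genes are transcribed late in G1 by E2F factors, which are held back by retinoblastoma proteins. Microglia of the first postnatal weeks are known to divide in the brain.

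To show the promoters concerned, 300-base windows from 250 bases before to 50 after a start were taken from a RefSeq promoter table (GRCm38.p6), which held 45 windows for 38 of the 46 genes and more than 1 for 6 of them. The starts are those of the table and need not be the outer end of the gene: the start shown lies 3749 bases inside the annotated span for Orc1, 976 for Uhrf1, 442 for Cdc6 and 41 for Mcm5. Each was searched on both strands for the 4 8-base spellings TTTCCCGC, TTTCGCGC, TTTGCCGC and TTTGGCGC of the E2F motif, which may overlap one another. The 5 windows printed here were taken from those that held a match. Their genes come from licensing, helicase and chromatin roles, with Gins3 as the matched gene that was not called. They are printed 5′ to 3′ on the plus strand, which is the strand of these genes, and capitals mark the matches.
Cdc6 chr11:98907901-98908200: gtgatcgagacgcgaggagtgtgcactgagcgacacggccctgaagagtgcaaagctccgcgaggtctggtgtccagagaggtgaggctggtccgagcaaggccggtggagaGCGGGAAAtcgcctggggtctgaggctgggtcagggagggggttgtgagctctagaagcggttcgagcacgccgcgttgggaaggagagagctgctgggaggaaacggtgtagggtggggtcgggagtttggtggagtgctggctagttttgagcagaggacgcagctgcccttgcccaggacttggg
Orc1 chr4:108579204-108579503: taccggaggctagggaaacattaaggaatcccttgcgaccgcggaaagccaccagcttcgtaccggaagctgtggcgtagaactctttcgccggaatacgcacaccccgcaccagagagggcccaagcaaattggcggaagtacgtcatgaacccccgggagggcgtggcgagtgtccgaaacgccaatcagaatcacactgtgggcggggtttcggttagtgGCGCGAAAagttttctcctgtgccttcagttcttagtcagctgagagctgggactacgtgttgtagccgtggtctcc
Mcm5 chr8:75109259-75109558: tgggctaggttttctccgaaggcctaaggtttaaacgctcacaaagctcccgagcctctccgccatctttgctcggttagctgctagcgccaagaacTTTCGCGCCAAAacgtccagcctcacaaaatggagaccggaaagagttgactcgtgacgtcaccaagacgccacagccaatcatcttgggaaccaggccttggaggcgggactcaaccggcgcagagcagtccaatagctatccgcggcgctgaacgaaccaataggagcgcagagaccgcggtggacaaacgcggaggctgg
Uhrf1 chr17:56304063-56304362: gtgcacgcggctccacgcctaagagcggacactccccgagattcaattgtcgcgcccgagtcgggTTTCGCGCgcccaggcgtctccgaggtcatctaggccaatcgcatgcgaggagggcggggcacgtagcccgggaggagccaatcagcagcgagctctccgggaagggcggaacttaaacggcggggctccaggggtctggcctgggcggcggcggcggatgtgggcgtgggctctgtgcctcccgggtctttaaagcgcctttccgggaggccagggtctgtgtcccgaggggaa
Gins3 chr8:95633309-95633608: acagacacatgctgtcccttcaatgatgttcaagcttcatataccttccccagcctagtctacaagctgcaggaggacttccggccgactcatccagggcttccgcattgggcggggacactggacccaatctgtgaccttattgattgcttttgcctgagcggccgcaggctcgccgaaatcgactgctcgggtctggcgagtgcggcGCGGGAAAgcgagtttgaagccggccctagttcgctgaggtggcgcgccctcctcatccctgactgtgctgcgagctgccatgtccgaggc
The capitals in Mcm5 are an overlapping pair of matches, TTTCGCGC and, on the other strand, TTTGGCGC. By window, 14 of 45 held a match (31.1%), against 744 of 32851 in the whole table (2.26%) and 1 of 30 for genes of mitosis and the kinetochore (3.33%). By gene, 14 of 38 had a match in some window (36.8%), against 704 of 27025 in the whole table (2.60%). The matched genes were Cdc6, Cdt1, Gins3, Lig1, Mcm3, Mcm5, Mcm6, Mcm7, Orc1, Pola1, Pold1, Pole2, Rfc3 and Uhrf1. A match is a string of letters, not a measured site, and its absence says only that these letters are not in the window.

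After LPS 44 of the 46 genes were higher, 1 (Pola2) was lower and 1 (Gins3) was not past the threshold. The call of Pola2 is that of the probe used for it, and another Pola2 probe was higher, as given below. Of all genes tested, 49.3% were called, 27.8% higher and 21.5% lower. The median change of the 46 genes was 1.0, with a range of -0.48 to 1.37, and that of all genes tested was 0.02. At least 2-fold higher were 23 of the 46, where 3.58% of all genes tested were. This count was 35 when arrays were scaled to their median and 9 with quantile normalization, where the share of all genes was not counted. In 44 of the 46 genes every LPS array was above every saline array, which was so in 25.8% of all genes tested. In Pola2 every LPS array was below every saline array, as in 18.9% of all genes tested. In sorted cells a larger share of dividing cells and more of these RNAs per cell cannot be told apart.

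**Figure D1:**
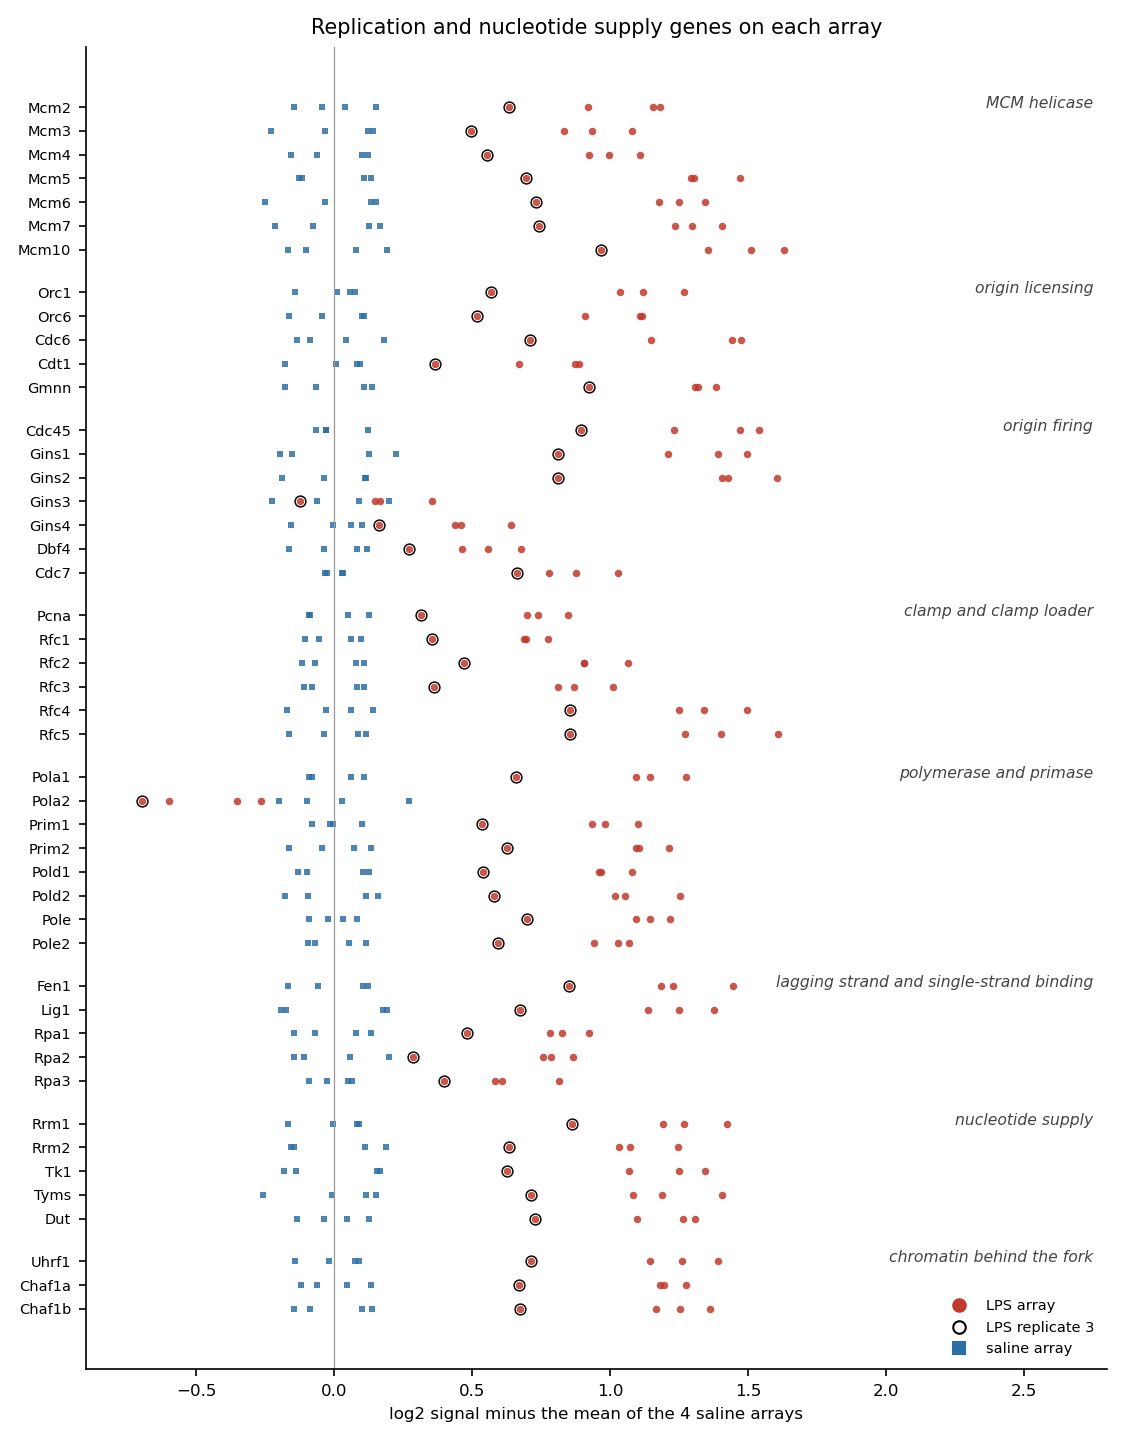
Each row is 1 gene and each point 1 array, as log2 signal minus the mean of the 4 saline arrays, ordered by role; red circles are LPS arrays (LPS replicate 3 ringed) and blue squares are saline arrays. Groups overlap only in Gins3, and only in Pola2, at the probe used for it, do all LPS arrays lie below the saline arrays.

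All 7 genes of the MCM helicase group were higher, with a median change of 1.12. Mcm2 to Mcm7 form the ring that unwinds DNA at the fork, and Mcm10 helps to start it. Mcm2 had levels of 3.16, 2.89, 2.61 and 3.13 on the LPS arrays, against 1.93, 2.13, 1.83 and 2.02 on the saline arrays. Mcm5 had 4.63, 4.45, 3.85 and 4.46 on the LPS arrays, against 3.27, 3.30, 3.04 and 3.03 on the saline arrays. Mcm10, with the largest change of the 46 genes, had 3.54, 3.42, 2.88 and 3.27 on the LPS arrays, against 1.99, 2.10, 1.74 and 1.81 on the saline arrays. In each of these genes the lowest LPS array was clear of the highest saline array. The change was 0.97 ± 0.13 (adjusted p = 0.00123) for Mcm2, 1.19 ± 0.17 (adjusted p = 0.00128) for Mcm5 and 1.37 ± 0.15 (adjusted p = 0.000709) for Mcm10, a ratio of 2.58 for the last. The other ring subunits changed by 0.84 ± 0.14 (Mcm3), 0.89 ± 0.13 (Mcm4), 1.12 ± 0.15 (Mcm6) and 1.17 ± 0.16 (Mcm7), so that all 6 ring subunits lay within 0.84 to 1.19.

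All 5 licensing genes were higher, with a median of 1.0. Orc1, the large ATPase of the origin recognition complex, had levels of -0.40, -0.63, -1.10 and -0.55 on the LPS arrays, against -1.66, -1.59, -1.61 and -1.81 on the saline arrays. Orc6, a small subunit of the same complex, had 2.96, 2.76, 2.37 and 2.96 on the LPS arrays, against 1.95, 1.96, 1.69 and 1.81 on the saline arrays. Their changes were 1.0 ± 0.15 (adjusted p = 0.00151) and 0.91 ± 0.14 (adjusted p = 0.00188). Cdc6 and Cdt1 are the loaders that bring the MCM ring to the origin. Cdc6 had 0.64, 0.34, -0.10 and 0.67 on the LPS arrays, against -0.62, -0.76, -0.89 and -0.94 on the saline arrays, a change of 1.19 ± 0.17 (adjusted p = 0.00141). Cdt1 had 4.09, 3.88, 3.58 and 4.10 on the LPS arrays, against 3.30, 3.29, 3.03 and 3.22 on the saline arrays, a change of 0.70 ± 0.13 (adjusted p = 0.00364). Gmnn encodes geminin, the inhibitor that binds Cdt1 and blocks a second round of licensing. It had 4.01, 3.94, 3.55 and 3.93 on the LPS arrays, against 2.73, 2.76, 2.44 and 2.56 on the saline arrays, a change of 1.23 ± 0.12 (adjusted p = 0.000505). So both the loader Cdt1 and its inhibitor rose, and in all 5 genes the groups did not overlap.

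Of the 7 genes of origin firing 6 were higher, with a median of 0.84, the widest spread of changes apart from the polymerase group. Cdc45 is the helicase cofactor that joins MCM at firing. Its levels were -1.41, -1.72, -2.05 and -1.48 on the LPS arrays, against -2.82, -2.98, -2.98 and -3.01 on the saline arrays, a change of 1.28 ± 0.14 (adjusted p = 0.00067). Gins1 to Gins4 encode the 4 subunits of GINS (Psf1, Psf2, Psf3 and Sld5 in that order), the other cofactor of the helicase. Gins1 had 3.19, 3.09, 2.51 and 2.91 on the LPS arrays, against 1.92, 1.82, 1.5 and 1.55 on the saline arrays. Gins2 had 3.61, 3.43, 2.81 and 3.41 on the LPS arrays, against 2.12, 2.12, 1.81 and 1.97 on the saline arrays. Gins3 had 3.77, 3.58, 3.29 and 3.56 on the LPS arrays, against 3.61, 3.51, 3.35 and 3.19 on the saline arrays. Gins1 and Gins2 were clear of saline on all LPS arrays, while in Gins3 the groups overlapped and the change of Gins3 turned to -0.10 with quantile normalization. Gins4 had 3.04, 2.86, 2.57 and 2.84 on the LPS arrays, against 2.50, 2.46, 2.25 and 2.40 on the saline arrays, with the LPS arrays all above the saline arrays by a narrow gap. The changes were 1.23 ± 0.17 (adjusted p = 0.00115) for Gins1, 1.31 ± 0.17 (adjusted p = 0.00104) for Gins2, 0.14 ± 0.13 (adjusted p = 0.393) for Gins3 and 0.42 ± 0.11 (adjusted p = 0.0155) for Gins4.

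Cdc7 and its activator Dbf4 form the kinase that phosphorylates the MCM ring. Cdc7 had 2.25, 2.00, 1.88 and 2.10 on the LPS arrays, against 1.25, 1.20, 1.25 and 1.19 on the saline arrays. Dbf4 had -0.10, -0.22, -0.50 and -0.31 on the LPS arrays, against -0.81, -0.69, -0.65 and -0.94 on the saline arrays. Cdc7 changed by 0.84 ± 0.09 (adjusted p = 0.000604) and Dbf4 by 0.49 ± 0.11 (adjusted p = 0.00696), with no overlap of groups in either. A further Dbf4 probe above background changed by -0.11 ± 0.09 (adjusted p = 0.358), with the p adjusted over 35494 probes.

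All 6 genes of the sliding clamp and its loader were higher, with a median of 0.80. Pcna, the ring that holds polymerases on DNA and also serves repair, had levels of 5.76, 5.65, 5.23 and 5.61 on the LPS arrays, against 4.96, 5.04, 4.82 and 4.83 on the saline arrays, and its change of 0.65 ± 0.12 (adjusted p = 0.00387) was among the smaller ones. Rfc1 to Rfc5 form the loader that opens the ring. Rfc3 had 3.0, 2.8, 2.35 and 2.86 on the LPS arrays, against 2.10, 2.07, 1.88 and 1.91 on the saline arrays. Rfc4 had 3.67, 3.42, 3.03 and 3.51 on the LPS arrays, against 2.31, 2.23, 2.00 and 2.14 on the saline arrays. Rfc5 had 4.56, 4.36, 3.81 and 4.23 on the LPS arrays, against 3.07, 3.04, 2.79 and 2.92 on the saline arrays. Rfc4 (1.24 ± 0.14, adjusted p = 0.000748) and Rfc5 (1.28 ± 0.16, adjusted p = 0.00089) were among the 5 largest changes of the 46, and Rfc3 changed by 0.76 ± 0.14 (adjusted p = 0.00347). Rfc1, the large subunit, changed by 0.63 ± 0.11 and Rfc2 by 0.84 ± 0.13.

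Of the 8 polymerase and primase genes 7 were higher and 1 lower. Pola1 and Pola2 are the catalytic subunit and the B subunit of polymerase alpha, which starts each new strand on an RNA primer laid by primase (Prim1 and Prim2). Pola1 had levels of 2.67, 2.54, 2.05 and 2.49 on the LPS arrays, against 1.5, 1.46, 1.31 and 1.32 on the saline arrays, and Prim1 had 3.34, 3.17, 2.77 and 3.22 on the LPS arrays, against 2.23, 2.34, 2.16 and 2.22 on the saline arrays. The groups were apart in both, with changes of 1.04 ± 0.14 (adjusted p = 0.00103) and 0.89 ± 0.12 (adjusted p = 0.00125). Prim2 changed by 1.01 ± 0.14, and the polymerase delta genes Pold1 and Pold2, which act mainly on the lagging strand, by 0.89 ± 0.13 and 0.98 ± 0.15. Pole is the catalytic subunit of the leading strand polymerase epsilon and changed by 1.04 ± 0.12. Its second subunit Pole2 had 0.22, 0.09, -0.25 and 0.18 on the LPS arrays, against -0.92, -0.73, -0.94 and -0.80 on the saline arrays, a change of 0.91 ± 0.12 (adjusted p = 0.00101).

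Pola2 was called lower at the probe that represents it here, the one with the highest mean signal. That probe had -1.06, -0.81, -1.16 and -0.73 on the LPS arrays, against -0.66, -0.43, -0.19 and -0.56 on the saline arrays, a change of -0.48 ± 0.14 (adjusted p = 0.0199) and a ratio of 0.718. The array carries 4 Pola2 probes above background, and they did not move alike, so their sequences are given, 5′ to 3′, with their mm9 positions on the minus strand as the deposited files give them. Each has 60 bases.
Pola2 RefSeq probe chr19:5946484-5946543: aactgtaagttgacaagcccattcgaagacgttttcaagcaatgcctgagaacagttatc
Pola2 other transcript probe chr19:5950346-5950405: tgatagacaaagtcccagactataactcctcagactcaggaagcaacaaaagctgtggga
Pola2 abutting probe a chr19:5956681-5956740: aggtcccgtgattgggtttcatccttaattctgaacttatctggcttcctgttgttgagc
Pola2 abutting probe b chr19:5956741-5956800: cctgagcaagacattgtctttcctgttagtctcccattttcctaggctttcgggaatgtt
The first was designed to a RefSeq transcript and the others to Ensembl transcripts, with probes a and b to the same one, where they lie end to end. Probe a is the one used for the gene. The RefSeq probe had -2.03, -2.01, -2.58 and -1.95 on the LPS arrays, against -2.87, -2.99, -2.68 and -3.08 on the saline arrays, a change of 0.76 ± 0.16 (adjusted p = 0.00558). It was higher, with no overlap of groups, as in Pola1. Probe b had -1.03, -1.0, -1.27 and -0.98 on the LPS arrays, against -0.81, -0.63, -0.43 and -0.68 on the saline arrays, a change of -0.44 ± 0.11 (adjusted p = 0.0113). It was lower, as probe a was. The remaining probe changed by -0.04 ± 0.15 (adjusted p = 0.824), and its groups overlapped. The changes of the RefSeq probe and probe a differed by 1.24, given without a test because the pair was chosen after the values were seen. The change of Pola2 at probe a was -0.26 and not past the threshold when arrays were scaled to their median, and -0.44 and not past it without LPS replicate 1. With RefSeq probes taken first, Pola2 was higher (0.76) and 45 of the 46 genes were.

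**Figure D2:**
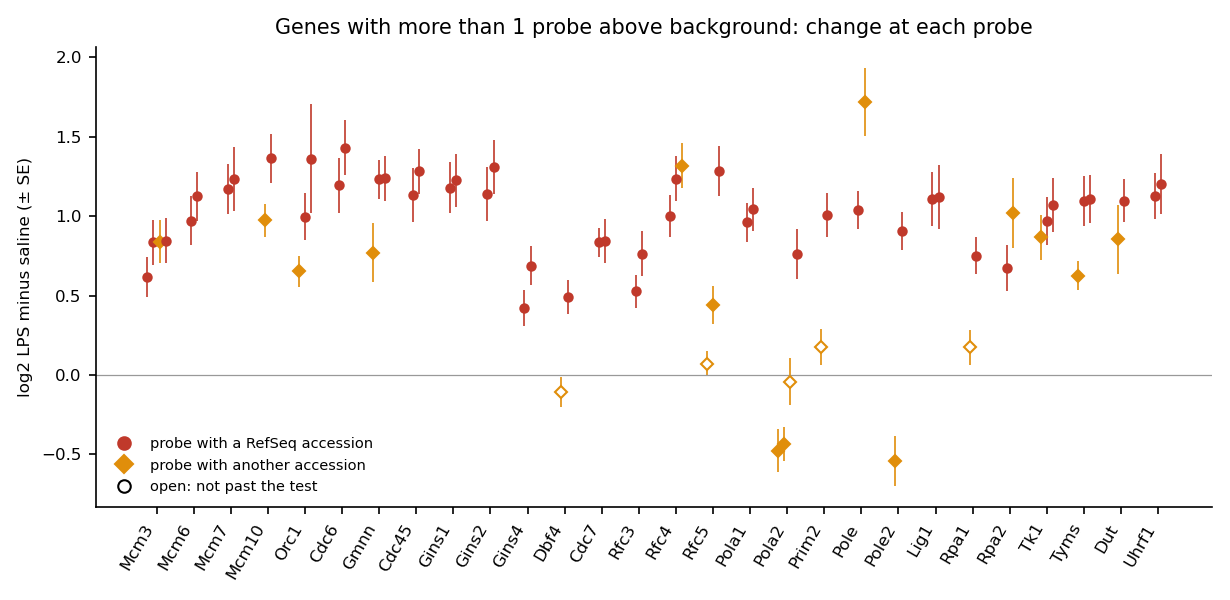
Change at each kept probe (log2 LPS minus saline ± SE, y axis) of the 28 genes with more than 1 such probe (x axis); red circles are probes with a RefSeq accession, orange diamonds are probes with another accession, and open symbols were not past the threshold. In 22 of the 28 genes all probes were higher, and the probes called lower are 2 of Pola2 and 1 of Pole2.

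Over the 84 kept probes of the 46 genes, 75 were higher, 3 lower and 6 not past the threshold, where 25.7% of all 35494 kept probes were higher. Those with a RefSeq accession numbered 65, of which 64 were higher, 0 lower and 1 (Gins3) not past, with a median of 1.01. The 19 with another accession split into 11 higher, 3 lower and 5 not past, with a median of 0.63. Pole2 was the other gene with opposite calls. Its second probe had -3.22, -2.97, -2.87 and -3.07 on the LPS arrays, against -2.60, -2.03, -2.67 and -2.68 on the saline arrays, a change of -0.54 ± 0.16 (adjusted p = 0.0235). Rfc5, Prim2 and Rpa1 each also had a probe that was not called, with changes of 0.07, 0.18 and 0.17. What RNA these other probes bind was not tested.

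All 5 genes of the lagging strand and of single-strand binding were higher, with a median of 0.75. Fen1, the nuclease that trims the flap of each Okazaki fragment, had levels of 4.91, 4.65, 4.31 and 4.69 on the LPS arrays, against 3.58, 3.57, 3.30 and 3.40 on the saline arrays. Lig1, the ligase that then seals the nick, had 4.91, 4.79, 4.21 and 4.67 on the LPS arrays, against 3.71, 3.73, 3.35 and 3.36 on the saline arrays. They changed by 1.18 ± 0.13 (adjusted p = 0.000713) and 1.11 ± 0.17 (adjusted p = 0.00167). Rpa1, Rpa2 and Rpa3 form the complex that coats single-stranded DNA in replication and in repair. Rpa2 had 0.95, 0.87, 0.37 and 0.84 on the LPS arrays, against 0.14, 0.28, -0.06 and -0.03 on the saline arrays. Rpa3 had 2.87, 2.67, 2.46 and 2.64 on the LPS arrays, against 2.13, 2.11, 1.97 and 2.04 on the saline arrays. Changes in this complex were 0.75 ± 0.11 for Rpa1, 0.67 ± 0.14 (adjusted p = 0.0062) for Rpa2 and 0.60 ± 0.10 (adjusted p = 0.00209) for Rpa3. No LPS array of these genes fell among the saline arrays.

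All 5 genes of nucleotide supply were higher, with a median of 1.10. Rrm1 and Rrm2 are the large and the S-phase small subunit of ribonucleotide reductase, which makes deoxyribonucleotides. Rrm1 had levels of 4.07, 3.91, 3.5 and 3.83 on the LPS arrays, against 2.73, 2.73, 2.47 and 2.64 on the saline arrays. Rrm2 had 4.82, 4.64, 4.20 and 4.60 on the LPS arrays, against 3.76, 3.68, 3.42 and 3.43 on the saline arrays. Both were apart from saline, by 1.19 ± 0.13 (adjusted p = 0.000612) for Rrm1 and 1.0 ± 0.15 (adjusted p = 0.00146) for Rrm2. Tk1, the cytosolic thymidine kinase of dividing cells, had 4.59, 4.49, 3.87 and 4.31 on the LPS arrays, against 3.40, 3.41, 3.06 and 3.1 on the saline arrays, a change of 1.07 ± 0.17 (adjusted p = 0.00182). Tyms, which makes dTMP from dUMP, had 4.36, 4.14, 3.66 and 4.03 on the LPS arrays, against 3.1, 3.07, 2.69 and 2.94 on the saline arrays, a change of 1.10 ± 0.16 (adjusted p = 0.00137). Dut, which breaks down dUTP, changed by 1.10 ± 0.14.

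Chromatin genes that act behind the fork were higher in 3 of 3. Uhrf1 reads hemimethylated DNA and brings the maintenance methyltransferase to it. It had levels of 4.78, 4.54, 4.11 and 4.66 on the LPS arrays, against 3.47, 3.48, 3.25 and 3.38 on the saline arrays, a change of 1.13 ± 0.15 (adjusted p = 0.00102). Chaf1a and Chaf1b are subunits of the assembly factor that puts histones onto new DNA. Chaf1b had 3.90, 3.71, 3.21 and 3.79 on the LPS arrays, against 2.68, 2.64, 2.39 and 2.45 on the saline arrays, a change of 1.11 ± 0.15 (adjusted p = 0.00123), and Chaf1a changed by 1.08 ± 0.14.

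Genes of related function outside the 46, Tk2 and Rrm2b, were set beside members of the list. Tk2, the mitochondrial thymidine kinase, had levels of 0.33, 0.26, 0.43 and 0.30 on the LPS arrays, against 1.07, 1.25, 1.15 and 1.11 on the saline arrays. It was lower, at -0.82 ± 0.07 (adjusted p = 0.000335), and its groups did not overlap. Rrm2b, the small subunit of ribonucleotide reductase that is also made outside S phase, had -2.29, -2.51, -2.51 and -2.60 on the LPS arrays, against -2.36, -2.54, -2.62 and -2.64 on the saline arrays. Its groups overlapped, with a change of 0.06 ± 0.10 (adjusted p = 0.625). In 5 pairs, chosen after the values were seen and so given without a test, the changes of both genes were subtracted. The difference was 1.89 for Tk1 minus Tk2, 0.94 for Rrm2 minus Rrm2b, 1.09 for Gins1 minus Gins3, 1.17 for Gins2 minus Gins3 and 0.29 for Gins4 minus Gins3. Gins3, itself among the 46, enters 3 of the 5 pairs.

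**Figure D3:**
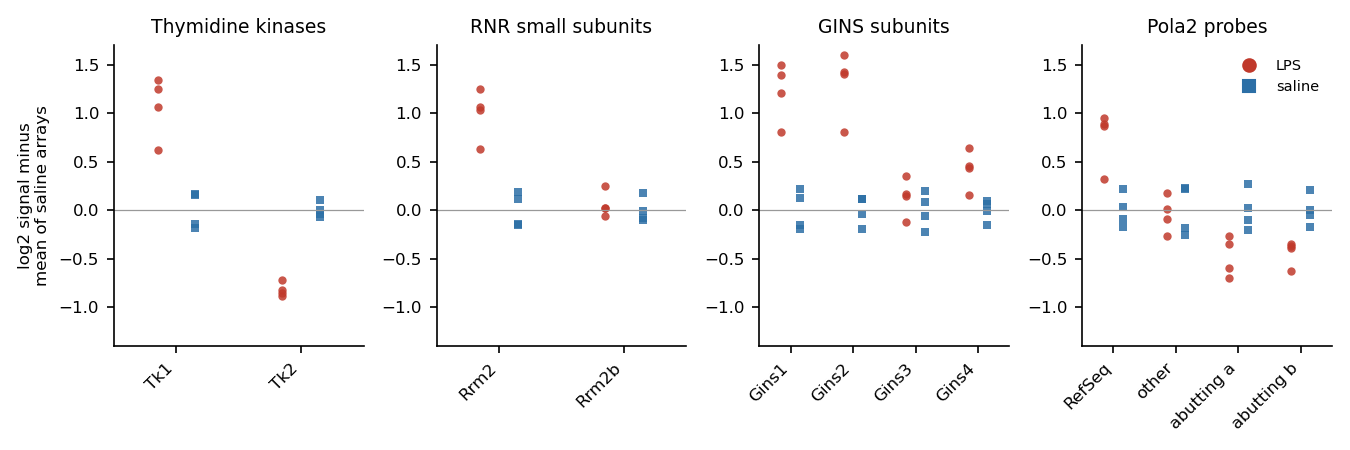
Each point is 1 array, as log2 signal minus the mean of the saline arrays of the same probe (y axis). Shown are genes of related function or of the same complex, and the 4 Pola2 probes (x axis). Red circles are LPS and blue squares saline. Tk1, Rrm2, Gins1 and Gins2 lie above saline on all LPS arrays, Tk2 and both abutting Pola2 probes lie below it, and Rrm2b, Gins3 and the other Pola2 probe overlap it.

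The arrays of the LPS group were not equal. Relative to the saline mean, the 46 genes averaged 1.16, 0.99, 0.57 and 1.02 on LPS replicates 1 to 4, against 0.09, 0.10, -0.12 and -0.07 on saline replicates 1 to 4. LPS replicate 3 was the lowest LPS array in 46 of 46 genes and was still above every saline array in 44 of them. LPS replicate 1 was the highest in 43, and saline replicate 3 the lowest saline array in 37. LPS replicate 3 and saline replicate 3 share a slide column; with slide column as a block 44 genes were higher, 1 was lower and the median was 1.0. The median SD of the 46 genes was 0.26 in the LPS group and 0.13 in the saline group, against 0.18 and 0.15 for all genes tested. The low LPS replicate 3 was not particular to the 46 genes. In each other list counted below, the mean was also lowest there among the LPS arrays. Genes of mitosis and the kinetochore averaged 0.64 on LPS replicate 3, with 1.16, 1.09 and 0.81 on LPS replicates 1, 2 and 4. LPS replicate 3 also had the highest median processed signal of the LPS arrays, 17.3, with 11.7, 13.1 and 13.8 on LPS replicates 1, 2 and 4. On saline replicates 1 to 4 it was 15.9, 15.5, 21.5 and 18.2. LPS replicates 1, 2 and 4 thus lay below every saline array, and this signal is partly confounded with the group. A fit with both cannot fully separate them. With this signal as a covariate, 42 of the 46 genes were higher (not Dbf4, Gins3, Gins4 and Pola2), the median change was 0.72 and 2 genes were at least 2-fold higher. Without LPS replicate 3, 44 were higher, 32 of them at least 2-fold, and the median was 1.14. Of all genes tested, 33.3% were higher with slide column as a block, 18.4% with the covariate and 32.5% without LPS replicate 3.

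**Figure D4:**
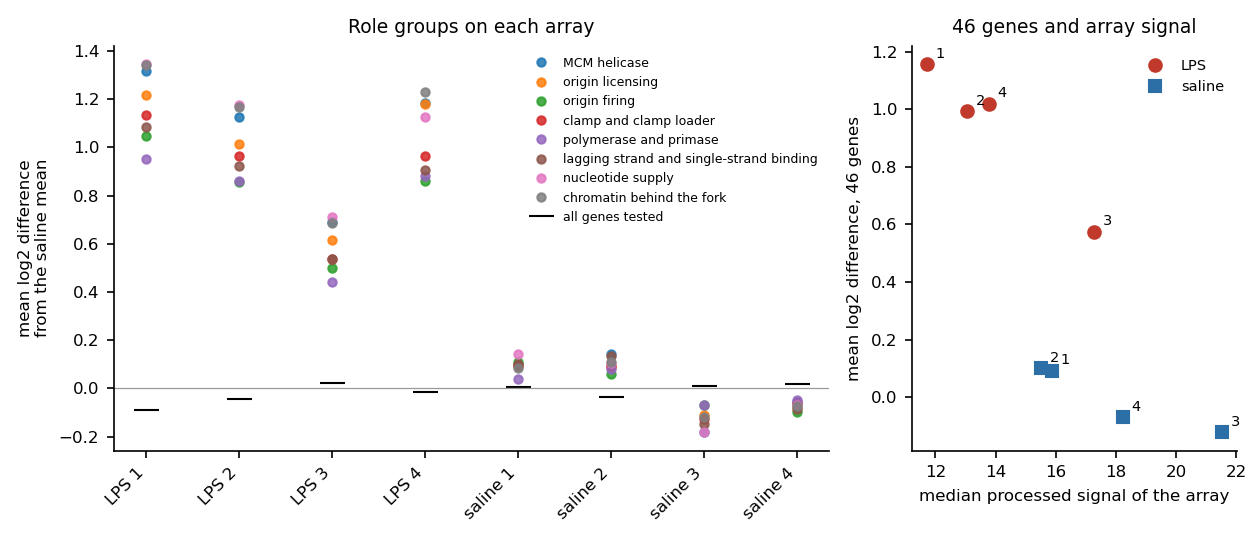
Left, mean log2 difference from the saline mean (y axis) of each role group (coloured points) and of all genes tested (black bars) on each array (x axis); right, the mean difference of the 46 genes (y axis) against the median processed signal of the array (x axis), with replicate numbers. All 8 role groups are lowest on LPS replicate 3 among the LPS arrays, and the 46 genes average 0.57 there.

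Other genes of the cycle were counted beside the 46. In this and the next paragraph, counts stand beside 27.8% of all genes tested called higher and 21.5% called lower. Of 40 other replication factors 33 were higher and 0 lower, with a median of 0.72. The largest changes there were those of Recql4, a helicase needed for firing (1.23 ± 0.12, adjusted p = 0.000404), Chtf18, part of an alternative clamp loader (1.19 ± 0.16, adjusted p = 0.00105), and Mcm8, an MCM relative of recombination (1.13 ± 0.14, adjusted p = 0.000859). Of 30 other genes of nucleotide supply 25 were higher and 1 (Tk2) lower, with a median of 0.84. Cmpk2, a mitochondrial nucleotide kinase that is also induced by interferon, changed by 1.97 ± 0.18 (adjusted p = 0.000345). The mitochondrial folate enzymes Mthfd2 and Shmt2 changed by 1.87 ± 0.13 (adjusted p = 0.000139) and 1.81 ± 0.15 (adjusted p = 0.000272).

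All 34 genes of mitosis and the kinetochore were higher, with a median of 0.97. Examples are Mybl2, a transcription factor of late cycle genes (1.52 ± 0.16, adjusted p = 0.000593), the spindle checkpoint kinase Bub1 (1.21 ± 0.14, adjusted p = 0.000751) and the kinetochore gene Cenpk (1.20 ± 0.15, adjusted p = 0.000895). Mki67, the usual label of cycling cells, had 6.25, 6.19, 5.84 and 5.87 on the LPS arrays, against 5.27, 5.16, 5.18 and 5.19 on the saline arrays, a change of 0.84 ± 0.11 (adjusted p = 0.00104). It was named after its values were seen. Of 13 E2F and retinoblastoma genes 9 were higher and 0 lower, with a median of 0.59, led by the factors E2f2 (0.95 ± 0.12, adjusted p = 0.001), E2f8 (0.89 ± 0.14, adjusted p = 0.00179) and E2f1 (0.84 ± 0.15, adjusted p = 0.00327). Among the retinoblastoma genes of the list, Rb1 (0.23) and Rbl1 (0.54) were also called higher, and Rbl2 (-0.16) was not past the threshold.

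Of 16 genes of G1 cyclins, kinases and inhibitors 7 were higher and 2 lower, with a median of 0.24. Over all genes tested 27.8% were higher and 21.5% lower. The Cdk2 partner Ccne1 changed by 1.37 ± 0.17 (adjusted p = 0.000994) and Ccne2 by 1.05 ± 0.17 (adjusted p = 0.00183), where Ccne2 was well above background on all LPS arrays and on 3 of 4 saline arrays. Among inhibitors of cyclin-dependent kinases, Cdkn2d rose by 0.82 ± 0.12 (adjusted p = 0.00155). Cdkn1c had 1.0, 1.41, 2.29 and 1.64 on the LPS arrays, against 2.72, 2.44, 3.04 and 3.04 on the saline arrays. It was lower, at -1.22 ± 0.27 (adjusted p = 0.00678), and so was Cdkn2b, at -0.51 ± 0.10 (adjusted p = 0.005), although the change of Cdkn2b was not past the threshold when arrays were scaled to their median (-0.30). The other genes of the list called higher were Ccnd3 (0.67), Cdk4 (0.57), Cdkn2c (0.38) and Cdc25a (0.31).

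**Figure D5:**
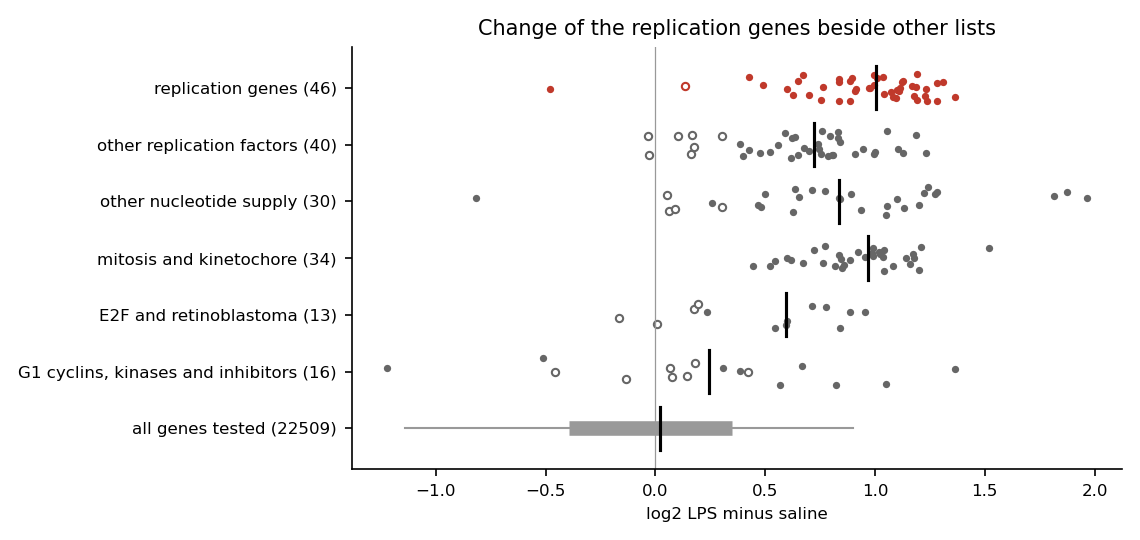
Change of each gene (log2 LPS minus saline, x axis) in the 46 replication genes (red) and in 5 other lists (grey), with the number of genes in brackets; filled points were called, open points were not, and black bars are medians. For all genes tested the thick bar spans the 25th to 75th percentile (-0.39 to 0.35) and the thin line the 5th to 95th (-1.14 to 0.90); the median of the 46 genes is 1.0.

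Markers of the cells that the sort could hold were also counted, and their part in the changes above was not tested. The counts here and in the next paragraph stand beside 27.8% of all genes tested called higher and 21.5% called lower. Sums are of linear signals relative to the 75th percentile of each array. The 10 microglial markers summed to 1741 to 2027 on LPS arrays and 1664 to 1988 on saline arrays, with 2 higher, 4 lower and 4 not past. Itgam, which encodes CD11b, the marker of the sort, had levels of 5.71, 5.70, 5.34 and 5.54 on the LPS arrays, against 4.89, 5.04, 4.89 and 4.84 on the saline arrays. It was higher after LPS, at 0.66 ± 0.10 (adjusted p = 0.00176), with no overlap of groups, while P2ry12, a receptor of resting microglia, changed by -1.55 ± 0.20. The 6 monocyte markers summed to 110 to 160 after LPS and 79.2 to 107 after saline, with 4 higher, among them Ly6c2 (2.11 ± 0.20) and Ccr2 (0.87 ± 0.17). Neutrophil markers were higher in 2 of 9 (S100a8 and S100a9), with sums of 169 to 298 on LPS arrays and 71.5 to 168 on saline arrays. The median change of the 9 was -0.07, and the other 7, from -0.89 (Camp) to 0.55 (Ly6g), were not past the threshold.

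Lymphocyte markers were higher in 5 of 8 measured, with sums of 5.88 to 7.19 after LPS and 3.78 to 5.18 after saline. Cd8a and Ncr1 were not well above background on any array. Erythroid markers were lower in 5 of 5 measured (10.8 to 13.9 on LPS arrays, 21.2 to 37.1 on saline arrays), and Klf1 was not well above background on any array. Astrocyte markers were lower in 5 of 6, at 7.69 to 9.79 on LPS arrays against 14.1 to 18.0 in saline. Oligodendrocyte markers were lower in 6 of 7, at 5.68 to 6.93 on LPS arrays against 9.36 to 9.53 in saline. Endothelial and pericyte markers were lower in 5 of 6, at 11.7 to 15.2 on LPS arrays against 17.3 to 24.5 in saline. Neuron and progenitor markers had 1 higher and 1 lower of 9 measured, with sums of 19.2 to 21.7 on LPS arrays and 18.9 to 21.5 on saline arrays, and Atoh1 was not well above background.

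The changes were also read by promoter match, with no test. Among the 14 genes with a match 13 were higher and the median change was 1.02. Among the 24 with a window and no match 23 were higher and the median was 0.99. The 8 with no window in the table were all higher, with a median of 1.02. Gins3, whose window is printed above with a match, was the gene that was not called.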

How the data were processed

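Arrays were Agilent 1-colour, 4 of LPS and 4 of saline tubes, each labelled with Cy3 from 50 ng of RNA per the labels. Agilent Feature Extraction 12.0.3.1 is the tool named in the submitters' processing notes. Scanner files were deposited as intensity values; their processed signal is background-subtracted by spatial detrending and not scaled between arrays, per the file headers. The authors' deposited table holds log2 values with the direction of the scanner values, less the 75th percentile of the array and centred on the median of the probe (column medians -0.07 to 0.08). The reason for that centring is not stated.

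Control and outlier spots and 6 probes without a usable spot were left out, and no spot was saturated. A probe was kept if well above background on 4 or more of 8 arrays (35494 probes), and the probe with the highest mean signal stood for each gene (22509 genes). The test was limma 3.58.1 (lmFit, eBayes; R 4.3.3) on log2 processed signal minus the array's 75th percentile, with Benjamini-Hochberg adjustment at 0.05, and was tested on simulated data first. Tubes are separate pools of 2 mice. Alternatives covered scaling, background correction (normexp, offset 50), filters, probe rules, blocks and leaving out each array. Members and gene lists were chosen with earlier results of these data known. Members were all counted by role; the text gives arrays for those fixed for each role, for the 5 largest and smallest changes and for genes with opposite probes, and names up to 3 called genes per direction of each other list. Rrm2b, Mki67 and the retinoblastoma genes were added after their values were seen. 1 further marker gene is not reported here. Other probes were named by RefSeq (GRCm38.p6) accession (35340), symbol (9100) or synonym (25), and 12051 kept the name in the file. Plots used matplotlib 3.10.9 (Python 3.11.15).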

Additional observations from a re-analysis of the deposited data

Results flagged for a closer look

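In 6 of 134 checked groups of 4 arrays, 1 array stood apart by more than Dixon's critical value for 4 samples (its gap to the next array over the range of the group). Chance alone flags about 1 in 20 such groups. In 4 of the 6 the array was LPS replicate 3, the lowest. Among the 46 genes these were Gmnn, with a ratio of 0.834 (3.55 against 3.93 to 4.01 on the other LPS arrays), and Chaf1a, with a ratio of 0.845 (2.02 against 2.54 to 2.63). Outside them they were Shmt2, with a ratio of 0.843 (3.34 against 3.88 to 3.98), and E2f1, with a ratio of 0.841 (2.66 against 3.14 to 3.23). Cdkn2b stood apart on LPS replicate 4, with a ratio of 0.871 (-3.22 against -2.91 to -2.87). Mcm8 stood apart on saline replicate 2, with a ratio of 0.889 (-0.57 against -0.75 to -0.73).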

How the results depend on the processing

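The count of genes called higher was 44 of 46 in every alternative except 42 with the mean of a gene's probes, 42 with array median signal as a covariate and 45 with RefSeq probes first. The last was added after the data were seen. The count called lower was 1, but 0 when scaled to each array's median, with the mean of probes, with the median signal as covariate and with RefSeq probes first, and 0 to 1 over leaving out each array (0 without LPS replicate 1). The median change of 1.0 became 0.72 with the median signal as covariate, and ranged from 0.93 to 1.14 over leaving out each array. The covariate is partly confounded with the group, as given above, so fits with it cannot fully separate them. All genes tested had a median of 0.24 when scaled to the array median and -0.13 when the 75th percentile was taken over the probes above background on every array (the bright-probe scaling). Relative to the median of all genes tested, the 46 genes stood at 0.98 as reported and at 0.83 with quantile normalization. The same 0.98 under both of these scalings was fixed in advance, because they shift the change of every gene by the same amount. The count of the 46 at least 2-fold higher was 23 as reported, 35 when scaled to the array median and 12 with the bright-probe scaling. It was 9 with quantile normalization, 16 with normexp and 2 with the median signal as covariate. Of all genes tested, 27.8% were called higher as reported. That share ran from 15.1% with no filter on dim probes to 36.3% with array weights. The share at least 2-fold higher, 3.58% as reported, was not counted under the alternatives.

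Pola2 was -0.26 (array median), -0.05 (mean of probes), -0.43 (covariate) and -0.44 (without LPS replicate 1), none past the threshold, and 0.76 with RefSeq probes first. Dbf4 was not past it with the mean of probes (0.19) or the covariate (0.37), nor Pole2 with the mean of probes (0.18), nor Gins4 with the covariate (0.19). The change of Gins3 turned sign with the bright-probe scaling (-0.018), with quantile normalization (-0.10) and with the covariate (-0.11). Rrm2b did so with the bright-probe scaling (-0.10), with the covariate (-0.062) and without LPS replicate 1 (-0.0033), over a range of -0.0033 to 0.12 when each array was left out. Cdkn2b was not past the threshold when scaled to the array median (-0.30) or with normexp (-0.10). The G1 list had 1 gene lower when scaled to the array median, and 4 lower with quantile normalization and with array weights, against 2 as reported. The E2F list had 1 lower with the bright-probe scaling, with the mean of probes, with slide column as a block and with the covariate, and the other replication factors 1 lower with the bright-probe scaling and with the mean of probes, against 0 as reported. The causes were not tested. Among the values of single genes of the 46 under the alternatives, 1000 kept their direction and side of the threshold, 8 lost the threshold and 4 changed sign. The labels give no replicate numbers that pair samples. Each slide column held 1 LPS and 1 saline array, so slide column as a block pairs the arrays by position, and neither it nor slide row as a block changed a call among the 46 genes.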
